A study of Mus musculus with 9 samples.

Results

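The 78 genes described here encode mitochondrial ribosomal proteins, and their RNA was measured in mouse kidney after saline, after endotoxin, and after endotoxin with thymosin β4. They were chosen by symbol: Mrpl or Mrps followed by a number and at most 1 letter, annotated as protein-coding, with a mean FPKM (fragments scaled by gene length and library depth) of at least 0.5 over 9 libraries. All 78 symbol matches among the 34310 genes of the table reached that minimum, as did 15015 genes in all, and these were tested. Mrpl15 lay nearest to the minimum, at a mean of 2.65 FPKM, so no match fell just outside it. By their known place in the ribosome, 26 of the products sit in the small subunit and 51 in the large one, where Mrps30 and Mrps18a are counted despite their symbols. Mrps36 was kept by its symbol, although its product is known as an adaptor of the α-ketoglutarate dehydrogenase complex of the citric acid cycle and not as a ribosome subunit.

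Mitochondria carry their own ribosomes, which translate the messages of the mitochondrial chromosome, all of them for membrane subunits of the respiratory chain and the ATP synthase. The ribosomal RNAs are made inside the organelle, whereas every ribosomal protein is encoded in the nucleus, translated in the cytosol and imported. Some of these proteins have counterparts in bacterial ribosomes, and others were added in the mitochondrial lineage. Kidney tubule cells, those of the proximal tubule above all, hold many mitochondria and pay for solute reabsorption with oxidative phosphorylation.

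The study sequenced poly(A) RNA of fresh kidney in groups of 3 mice. One group received saline, another lipopolysaccharide (LPS, an endotoxin that bacteria carry in their outer membrane), and the last LPS together with thymosin β4 (LPS+Tβ4), a small actin-binding peptide. Each library stands for a single mouse. Genotype, strain, sex, age, dose, route and time are not stated in the labels, and nothing is said of separate cohorts, so p-values measure only the spread between these mice. The 9 libraries held 52953654 to 62019631 counts. Levels below are CPM, read counts brought to a common library size after TMM scaling, a scaling that takes most genes as unchanged, and each change is a log2 fold change ± its SE, from edgeR with Benjamini-Hochberg adjustment over the 15015 genes. Defining markers of every nephron segment listed were detected.

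Members were moderately expressed, with mean levels over the 9 libraries from 2.65 to 61.9 FPKM and a median of 11.8 FPKM. In saline kidney the highest was Mrps21, counterpart of bacterial S21, at 98.5 ± 20.5 FPKM (SD, n = 3). Mrpl12, the stalk protein that contacts translation factors, followed at 69.9 ± 11.1 FPKM. Over all libraries the next in rank were Mrpl18 (47.3 FPKM), Mrpl27 (35.9 FPKM), Mrps6 (35.5 FPKM) and Mrpl2, a core protein of the peptidyl transferase region (32.1 FPKM). At the other end stood Mrpl15 (2.65 FPKM), Mrpl23 (2.79 FPKM), Mrps10 (2.99 FPKM) and Mrps30 (3.14 FPKM). The ranks depend on the gene model, because the deposited counts and FPKM together imply a gene length 1.12 to 17.2 times that of the longest coding transcript in GENCODE M21. Per kilobase of that transcript Mrps21 was again first, but Mrpl33 moved from rank 60 to rank 2 and Mrpl42 from rank 35 to rank 3. The length itself does not change comparisons of 1 gene between groups, since it was the same in every library to within 0.68%. Which transcripts of the longer gene models gave the counts was not tested.

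The effect of endotoxin on these genes was examined first, in the LPS and saline libraries. Of 78 members, 26 fell and 1 rose, where 22.2% of all tested genes fell and 20.9% rose in edgeR. Their median change was -0.30, against 0.02 over all tested genes. With limma it was -0.13 on log2(FPKM + 1) and -0.14 on log2(FPKM + 0.1), where the median of all tested genes was 0.114 and 0.145. The levels of the 3 LPS libraries lay wholly below those of the 3 saline libraries for 35 members (44.9%, where 28.5% of all tested genes did so) and wholly above for Mrps18b, Mrps30 and Mrpl33 (3.85%, against 25.8%). Leaving out Mrps36, 25 of the 77 ribosome subunits fell and 1 rose. In the small subunit 9 of 26 fell and 1 rose, with a median of -0.47, and in the large subunit 16 of 51 fell and 0 rose (median -0.26). Members with a bacterial counterpart fell in 15 of 46 cases (median -0.32), and those without one fell in 10 of 31 cases and rose in 1 (median -0.29). Falls were thus found in both subunits and in both kinds of protein. In bulk tissue, fewer cells of a type and less RNA per cell cannot be told apart.

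**Figure D1:**
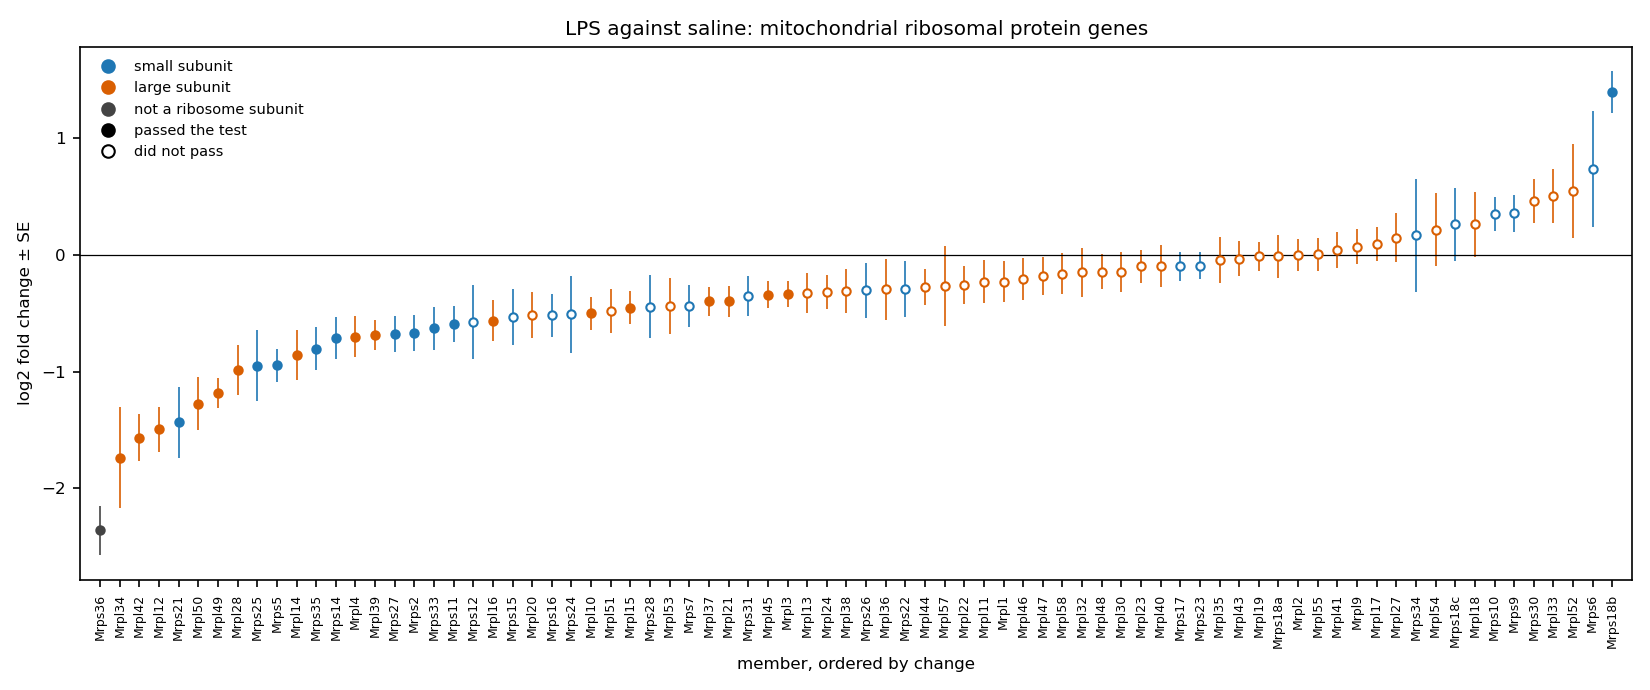
Log2 fold change (vertical axis, ± SE) of each of the 78 members in LPS against saline, ordered along the horizontal axis, 3 libraries a group; colour marks the subunit and filled points passed the test. Most points lie below 0, from Mrps36 at -2.36 to Mrps18b at 1.40.

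The largest fall was that of Mrps36 (ENSMUSG00000061474, chr13:100735955-100744659 of GRCm38, minus strand). Saline libraries 1, 2 and 3 held 55.0, 40.2 and 41.2 CPM and the LPS libraries 7.13, 10.8 and 8.64 CPM, a change of -2.36 ± 0.21 (edgeR adjusted p = 0.000138). Every LPS library lay below every saline library by a wide gap.

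Among large subunit genes, Mrpl42 (ENSMUSG00000062981, chr10:95480805-95501927, minus strand), for a protein with no bacterial counterpart, held 117, 77.2 and 84.5 CPM in saline and 35.7, 30.1 and 28.2 CPM in LPS (-1.56 ± 0.20, edgeR adjusted p = 0.000578). Mrpl12 (ENSMUSG00000039640, chr11:120484613-120489065, plus strand) held 166, 112 and 119 CPM in saline and 50.4, 47.9 and 42.8 CPM in LPS (-1.49 ± 0.19, edgeR adjusted p = 0.000619). For both genes the groups were apart, and saline library 1 was the highest. Mrpl49 (ENSMUSG00000007338, chr19:6053622-6057785, minus strand), for another protein of the mitochondrial lineage, had tighter groups, with 53.6, 46.4 and 51.3 CPM against 22.3, 21 and 23.5 CPM (-1.18 ± 0.13, edgeR adjusted p = 0.00028). Mrpl50 fell by 1.27 ± 0.23, Mrpl28 by 0.99 ± 0.22 and Mrpl39 by 0.68 ± 0.13 on the log2 scale. In each of these 3 the groups did not overlap.

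In the small subunit, Mrps5, counterpart of bacterial S5 at the entry of the messenger channel, held 53.9, 54.0 and 55.5 CPM in saline and 33.8, 25.6 and 25.5 CPM in LPS (-0.94 ± 0.14, edgeR adjusted p = 0.00113). Its saline libraries were nearly equal, and all lay above the LPS libraries. Mrps21 held 118, 71.6 and 80.8 CPM in saline and 19.9, 45.3 and 34.9 CPM in LPS (-1.43 ± 0.30, edgeR adjusted p = 0.00598). Both groups of Mrps21 were wide, yet they did not overlap. Mrps35 fell by 0.80 ± 0.18, Mrps27, a pentatricopeptide repeat protein, by 0.68 ± 0.15, and Mrps2, counterpart of bacterial S2, by 0.67 ± 0.16 on the log2 scale.

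Mrpl34, counterpart of a very small bacterial protein, showed how much 1 library could weigh. It held 40.7, 15.1 and 14.1 CPM in saline and 8.79, 7.02 and 5.16 CPM in LPS (-1.74 ± 0.43, edgeR adjusted p = 0.012). Without saline library 1 the change was -1.01 and still passed (edgeR adjusted p = 0.026). Its groups did not overlap with or without that library.

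The other 13 members that fell had changes between -0.95 and -0.34. In the small subunit they were Mrps25 (-0.95), Mrps14 (-0.71), Mrps33 (-0.63) and Mrps11 (-0.59). In the large subunit they were Mrpl14 (-0.85), Mrpl4 (-0.70), Mrpl16 (-0.56), Mrpl10 (-0.50), Mrpl15 (-0.45), Mrpl37 (-0.40), Mrpl21 (-0.39), Mrpl45, which lies near the exit of the peptide tunnel (-0.34), and Mrpl3 (-0.34). Each of these 13 calls was lost in at least 1 alternative.

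Among the 51 members that did not pass, changes ran from -0.57 for Mrps12 to 0.74 for Mrps6. Mrps12, the counterpart of bacterial S12 at the decoding centre, held 29.2, 15.9 and 12.8 CPM in saline and 15.7, 13.9 and 9.50 CPM in LPS (edgeR adjusted p = 0.178). Its groups overlapped, and saline library 1 was far above the other two. Mrpl2 held 46.0, 39.4 and 40.2 CPM in saline and 39.2, 42.7 and 44.1 CPM in LPS (0.00 ± 0.14, edgeR adjusted p = 0.989). Mrpl58, a peptidyl-tRNA hydrolase built into the large subunit, held 37.4, 30.1 and 27.4 CPM in saline and 29.3, 31.3 and 24.4 CPM in LPS (-0.16 ± 0.17, edgeR adjusted p = 0.489). In Mrpl2 and Mrpl58 the groups overlapped.

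The sequences just before the start of 4 members that fell are shown as examples, which do not all hold the same short motifs. They come from RefSeq (GRCm38.p6), run 5′ to 3′ on the strand of the gene, and cover up to 250 bases before its start; exon bases of any gene were left out, which shortened those of Mrpl12 (24 bases next to the start) and Mrps27. Capitals mark CCGGAAG, the core bound by ETS factors such as GABPA, or CCAAT, the box bound by NF-Y, each on either strand. Mrps36 (minus strand, chr13:100744660-100744909) holds CCAAT on its other strand from 86 bases before the start, Mrpl12 (plus strand, chr11:120484387-120484612) holds neither, and Mrps27 (plus strand, chr13:99344706-99344785) and Mrpl34 (plus strand, chr8:71464676-71464925) hold the ETS core from 48 and 37 bases before the start.
Mrps36: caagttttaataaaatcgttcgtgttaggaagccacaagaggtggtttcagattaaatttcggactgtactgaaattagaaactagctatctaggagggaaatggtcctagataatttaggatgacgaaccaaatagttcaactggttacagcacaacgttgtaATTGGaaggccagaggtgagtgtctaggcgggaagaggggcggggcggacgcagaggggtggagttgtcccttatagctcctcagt
Mrpl12: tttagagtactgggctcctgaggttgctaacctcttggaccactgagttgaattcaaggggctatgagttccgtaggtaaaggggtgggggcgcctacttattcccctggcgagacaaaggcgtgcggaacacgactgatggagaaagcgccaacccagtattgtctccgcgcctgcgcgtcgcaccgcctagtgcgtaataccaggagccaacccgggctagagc
Mrps27: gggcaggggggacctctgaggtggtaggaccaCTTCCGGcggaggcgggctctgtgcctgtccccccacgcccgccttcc
Mrpl34: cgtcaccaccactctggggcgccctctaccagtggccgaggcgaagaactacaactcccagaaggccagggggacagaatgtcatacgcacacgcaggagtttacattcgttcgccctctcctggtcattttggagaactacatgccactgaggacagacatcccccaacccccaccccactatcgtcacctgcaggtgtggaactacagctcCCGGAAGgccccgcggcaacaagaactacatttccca

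Of the 78 members, 69 had a promoter in that table, taken from 250 bases before to 50 after the start. CCGGAAG stood in 26 of the 69 (37.7%), and in 19.4% of the promoters of 10065 tested protein-coding genes. GCATGCGC, bound by NRF1, stood in 11.6% of member promoters and 5.7% of all, and AAGATGGCG, bound by YY1, in 11.6% and 3.5%. CCAAT stood in 39.1% and 42.4%. Both strands were searched, and a CCGGAAG can share its last letters, AAG, with an AAGATGGCG. Among the 23 fallen members with a promoter, 6 held CCGGAAG (26.1%), and among the other 46, 20 did (43.5%). AAGATGGCG stood in 4 of the 23 (17.4%) and in 4 of the 46 (8.7%). A match is a run of letters and shows no binding.

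Mrps18b (ENSMUSG00000024436, chr17:35910379-35916389, minus strand) was the only member that rose. It held 24.5, 23.1 and 25.9 CPM in saline and 54.4, 64.4 and 74.6 CPM in LPS, a change of 1.40 ± 0.18 (edgeR adjusted p = 0.000618). All 3 LPS libraries stood above every saline library, and the saline libraries were close together. Mammals have 3 nuclear genes of the family of bacterial S18, of which Mrps18c is counted here as the bacterial counterpart, and the other two did not pass. Mrps18a held 52.2, 40.8 and 40.4 CPM in saline and 35.3, 45.5 and 51.7 CPM in LPS (-0.01 ± 0.18, edgeR adjusted p = 0.974). Mrps18c held 26.6, 25.5 and 26.4 CPM in saline and 17.4, 47.9 and 29.0 CPM in LPS (0.27 ± 0.31, edgeR adjusted p = 0.521). The LPS libraries of Mrps18c lay on both sides of the saline ones. An antisense gene, Gm16279, covers 30.5% of the exon bases of Mrps18b and rose by 0.70 ± 0.23 (edgeR adjusted p = 0.0389), from 4.26, 5.23 and 5.77 CPM in saline to 6.79, 9.61 and 8.35 CPM in LPS, and the strand setting of the counting is not given in the sources used here.

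Mrps18b also starts close to a gene that moved the other way. Ppp1r10, which encodes a regulatory subunit of protein phosphatase PP1, starts 45 bases from it on the opposite strand and fell from 57.4, 58.6 and 72.9 CPM to 36.9, 32.1 and 30.4 CPM (-0.93 ± 0.18, edgeR adjusted p = 0.00382). Such a protein-coding neighbour, on the opposite strand, within 1000 bases and not overlapping at its start, was found for 18 members, and 17 of the neighbours were tested. Another 5 members, Mrpl21, Mrpl27, Mrpl36, Mrpl44 and Mrps7, overlap their divergent neighbour at the start and were left out of the tally. In 3 pairs both genes fell, in 1 they passed in opposite directions, in 3 the member alone passed, in 3 the neighbour alone, and in 7 neither. Of all tested genes 22.2% fell and 20.9% rose in this comparison, and divergent pairs of other genes were not counted. Mrps27 and its neighbour Ptcd2, a mitochondrial RNA-binding protein, fell together (-0.68 ± 0.15 and -0.94 ± 0.15). Mrpl49 fell while its neighbour Fau, whose product gives a cytosolic ribosomal protein, stood at 0.23 ± 0.22 (edgeR adjusted p = 0.429). The pairs were looked at after the members' changes were known.

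**Figure D2:**
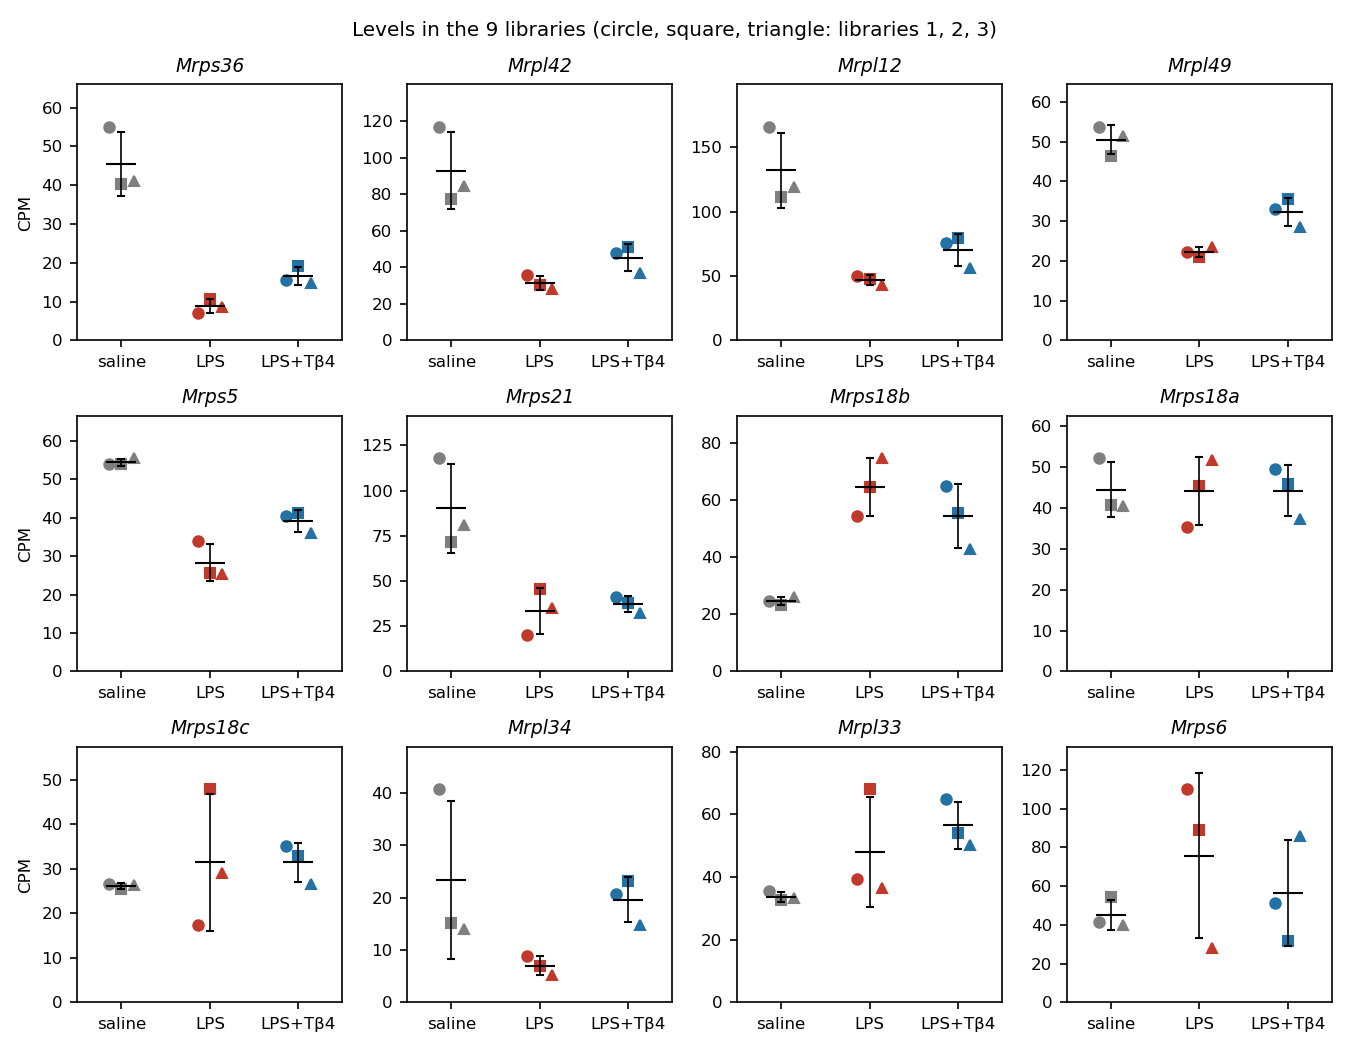
Levels of 12 members in CPM (vertical axes, each from 0) in the 9 libraries by group; bars give the mean and SD of 3 libraries and symbols give the library number. Mrps36, Mrpl42, Mrpl12, Mrpl49 and Mrps5 are lower in all LPS libraries than in all saline libraries, Mrps18b is higher, and the LPS libraries of Mrps18c and Mrps6 lie on both sides of the saline mean.

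Some counts are uncertain because members share bases with other genes. In GENCODE M21, 20 members share at least 5% of their exon bases with another coding gene, among them Mrpl53 with Gm42688 (88.0%, same strand), Mrps25 with Nr2c2 (69.8%, opposite strand) and Mrps34 with Mapk8ip3 (63.4%, opposite strand) and Nme3 (37.0%, same strand). Among the other 58 members, 22 fell and 1 rose. Mrps6, which encodes the counterpart of bacterial S6, shares 19.9% of its exon bases with Gm49711 and 10.4% with the inositol transporter gene Slc5a3, both on the same strand. It held 41.5, 54.3 and 40.2 CPM in saline, 110, 88.9 and 28.0 CPM with LPS alone, and 51.2, 31.8 and 85.8 CPM in LPS+Tβ4. Slc5a3 held 136, 253 and 151 CPM, 329, 179 and 68.7 CPM, and 118, 74.8 and 215 CPM in the same libraries. Both genes were highest in library 1 and lowest in library 3 of the LPS group, and highest in library 3 and lowest in library 2 of the LPS+Tβ4 group, and Mrps6 passed in no comparison.

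Library 1 of the saline group stood apart in these genes, and not in these alone. It was the highest of the saline libraries for 68 of 78 members (87.2%), where it was so for 36.8% of all tested genes. It was also the highest in the summed CPM of cytosolic ribosomal proteins (19410 against 15490 and 15980), of nuclear respiratory chain genes (19780 against 16390 and 17590) and of the protein genes of the mitochondrial chromosome (181500 against 128700 and 150200). The 78 members together held 3503, 2810 and 2909 CPM in saline, 2212, 2617 and 2358 CPM with LPS alone, and 2855, 2743 and 2280 CPM in LPS+Tβ4. All 3 LPS sums lay below all 3 saline sums. Without saline library 1, 13 members fell and 3 rose, with a median of -0.15. Of the 27 calls, 14 held in every alternative tried, namely Mrps36, Mrpl42, Mrpl12, Mrpl49, Mrps5, Mrps21, Mrpl50, Mrpl39, Mrpl28, Mrps27, Mrps35, Mrps2, Mrpl34 and Mrps18b.

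The members' transcripts are short, with a median of 1327.5 bases against 2715 over all tested genes, and short genes varied between libraries too. In log2 CPM, the median deviation from the group mean was 0.18 for the members and 0.12 for the 20% of genes with the shortest transcripts in saline library 1. The same values were -0.12 and -0.11 in LPS library 1, 0.10 and 0.18 in LPS library 2, and -0.21 and -0.09 in LPS+Tβ4 library 3. In every library members and short genes deviated in the same direction, least in LPS library 3 (-0.005 and -0.013). With offsets for GC content and transcript length, chosen after seeing the data, 26 members fell and 4 rose in LPS.

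**Figure D3:**
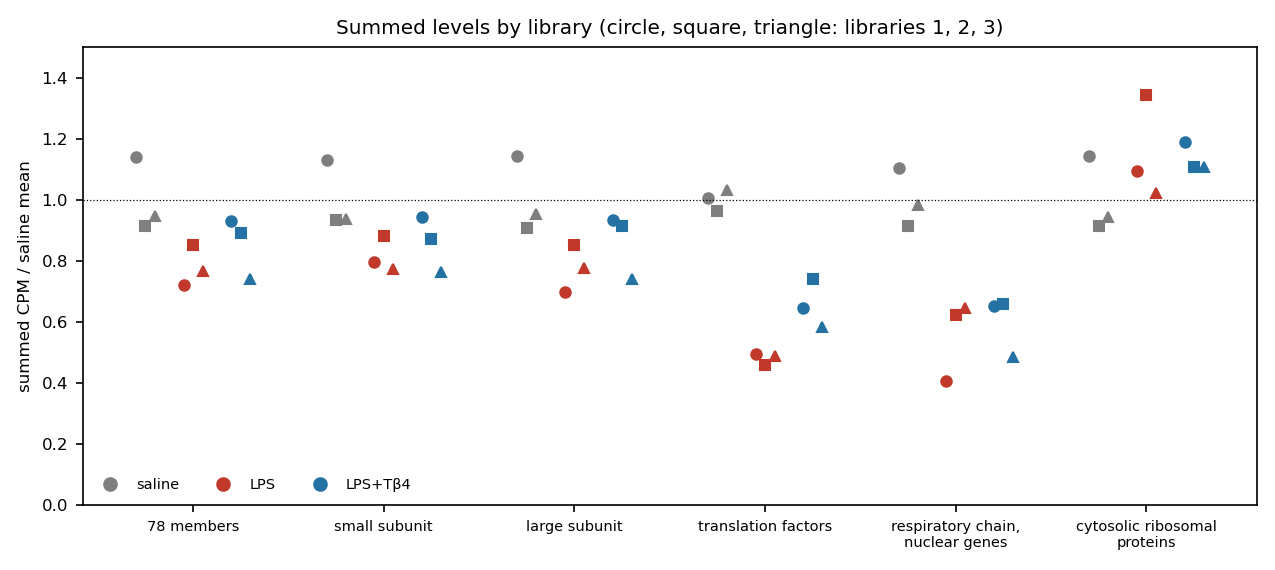
Summed CPM of each gene set in the 9 libraries, divided by the mean of the saline libraries (vertical axis, from 0). The LPS sums of the 78 members lie below all their saline sums, while those of cytosolic ribosomal proteins do not.

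Markers of other cells moved between libraries and groups. The 15 proximal tubule markers, all tested and none at 0, summed to 15420 to 19300 CPM in saline, 1660 to 6274 CPM with LPS alone, and 2811 to 5238 CPM in LPS+Tβ4, and 12 of them fell in LPS. Of 9 markers of the loop of Henle and distal convoluted tubule 8 fell (5534 to 6722 CPM in saline and 718.7 to 3021 CPM in LPS), of 10 of the collecting duct 6 fell (652.5 to 794.7 and 231.0 to 431.1 CPM), and of 6 of podocytes 4 fell (387.5 to 590.0 and 133.5 to 266.0 CPM). Of 5 neutrophil markers tested 4 rose, with sums of 0.643 to 2.5 CPM in saline and 19.1 to 40.6 CPM in LPS, with Mmp8 and Retnlg at 0 in at least 1 library. The 5 urothelial markers summed to 1.68, 64.5 and 79.9 CPM in saline, 63.0, 49.2 and 3.28 CPM with LPS alone, and 1.10, 1.07 and 94.2 CPM in LPS+Tβ4. Upk2, Upk3a and Krt5 were each at 0 in at least 1 library. With the urothelial sum as a covariate, 30 members fell and 2 rose in LPS. The part of the tubule, podocyte and neutrophil markers in the result was not tested.

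Other genes of mitochondrial translation were taken from lists. Of 15 translation factors, 13 fell in LPS and 0 rose (median -1.08). Gfm2, which recycles ribosomes after termination, held 86.7, 84.1 and 91.0 CPM in saline and 27.6, 26.2 and 25.4 CPM in LPS (-1.73 ± 0.11, edgeR adjusted p = 4.31e-05). Tufm, the elongation factor that delivers aminoacyl-tRNA, fell by 1.31 ± 0.14 and Guf1, a back-translocase homolog, by 1.10 ± 0.12 on the log2 scale. The list summed to 761.3, 729.8 and 782.2 CPM in saline and to between 348.1 and 373.7 CPM in LPS, so saline library 1 was not the highest here. Of 17 aminoacyl-tRNA synthetases of mitochondria 11 fell and none rose, and of 11 genes of mitochondrial DNA transcription and maintenance 7 fell and none rose, both with a median of -0.62. Rars2 and Nars2, for arginyl- and asparaginyl-tRNA, fell by 0.92 ± 0.14 and 1.64 ± 0.30 on the log2 scale. Mgme1, an exonuclease of mitochondrial DNA, fell by 1.84 ± 0.19, Top1mt, the topoisomerase, by 0.99 ± 0.18 and Twnk, the helicase, by 0.94 ± 0.20.

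Genes for ribosome assembly and rRNA modification were more mixed. Of 26 tested, 9 fell and 3 rose, with a median of -0.28. Fastkd2, an RNA-binding protein of mitochondrial RNA granules, held 31.8, 27.7 and 33.3 CPM in saline and 13.4, 10.8 and 10.2 CPM in LPS (-1.43 ± 0.18, edgeR adjusted p = 0.000554). Mettl15, a methyltransferase of the small subunit rRNA, fell by 1.42 ± 0.24, and Mrm2, a methyltransferase of the large subunit rRNA, by 1.09 ± 0.19. Ddx28, an RNA helicase of large subunit assembly, rose from 7.40 ± 0.68 to 21.4 ± 7.55 CPM (1.53 ± 0.31, edgeR adjusted p = 0.00482). Of 5 ribosomal proteins whose symbols fall outside the rule, Ptcd3 fell (-0.94 ± 0.12, edgeR adjusted p = 0.000573) and Dap3, a GTP-binding protein of the small subunit, did not pass (0.08 ± 0.15, edgeR adjusted p = 0.708). The mitochondrial rRNA mt-Rnr1, seen here through poly(A) selection, held 1638, 1054 and 1059 CPM in saline and 1416, 7080 and 4708 CPM in LPS (1.82 ± 0.58, edgeR adjusted p = 0.0332). LPS library 1 of mt-Rnr1 lay among the saline libraries. mt-Rnr2 did not pass (0.55 ± 0.47, edgeR adjusted p = 0.368).

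Regulators of nuclear genes for mitochondria went both ways, with 2 of 11 lower and 3 higher in LPS. Ppargc1a, the coactivator PGC-1α, held 82.9, 92.9 and 70.8 CPM in saline and 25.2, 14.8 and 19.6 CPM in LPS (-2.05 ± 0.26, edgeR adjusted p = 0.00055). Pprc1, a related coactivator, rose by 1.29 ± 0.20, and Myc, a transcription factor of cell growth, rose from 4.19 ± 1.41 to 43.4 ± 5.51 CPM (3.37 ± 0.36, edgeR adjusted p = 0.000284). Gabpa, Nrf1 and Yy1, whose motifs were counted above, did not pass (-0.18 ± 0.12, 0.36 ± 0.15 and -0.05 ± 0.14).

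Larger sets taken by symbol give the setting. Of 73 nuclear genes of the respiratory chain and ATP synthase, 46 fell and none rose in LPS, with a median of -0.80. Ndufs1, Ndufs8 and Ndufv3, subunits of the matrix arm of complex I, had changes of -1.59, -1.06 and -1.15. Of the 13 protein genes of the mitochondrial chromosome, which mitochondrial ribosomes translate, 9 fell, with a median of -0.96, and none was higher at the threshold. Of 78 cytosolic ribosomal protein genes none fell and 5 rose, with a median of 0.16, among them Rpl18 (0.57 ± 0.13, edgeR adjusted p = 0.00962). The members' median of -0.30 lay between these values, and no test of the difference between lists was made.

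**Figure D4:**
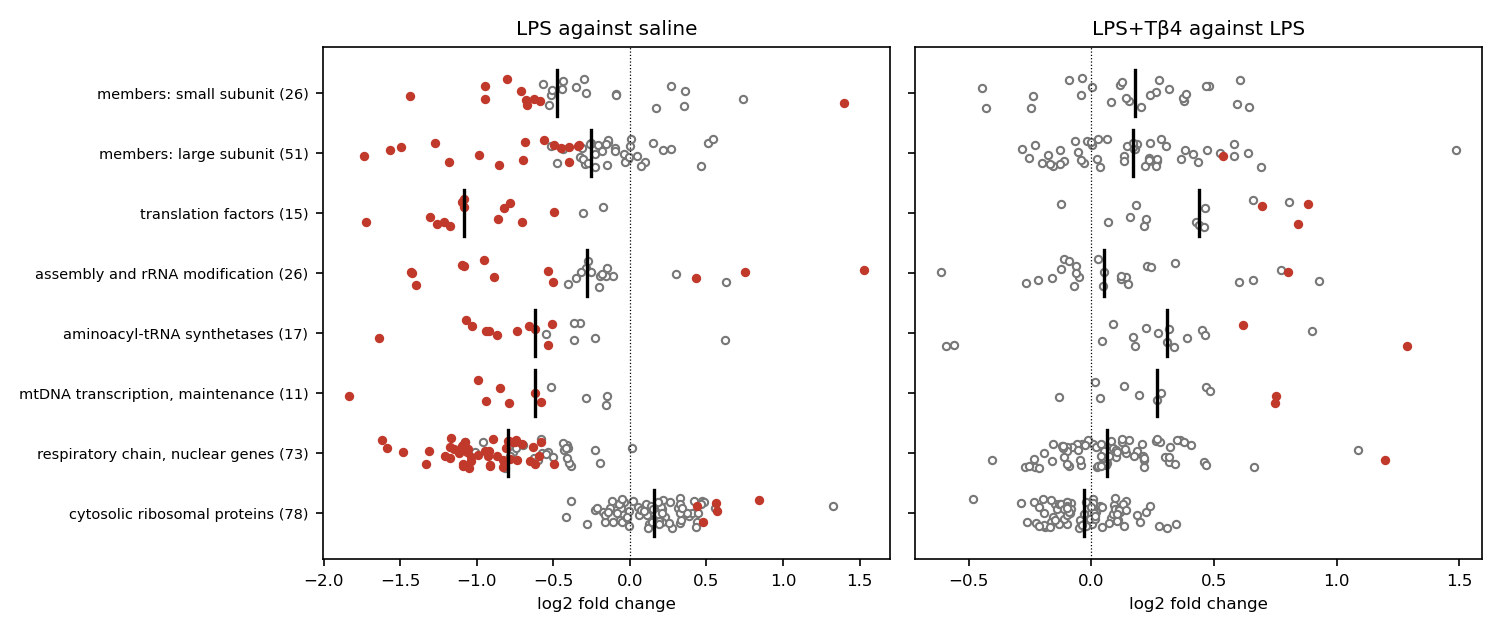
Log2 fold change (horizontal axes) of each gene in LPS against saline (left) and LPS+Tβ4 against LPS (right), by list with the number of genes; filled points passed edgeR and the bar is the list's median. In the left panel the medians run from -1.08 for translation factors to 0.16 for cytosolic ribosomal proteins.

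Adding thymosin β4 to endotoxin was examined by setting the LPS+Tβ4 libraries against the LPS libraries. Of 78 members 2 rose and none fell, where 4.5% of all tested genes rose and 2.33% fell in edgeR, and the median change was 0.17 against -0.01 over all tested genes. At an unadjusted p under 0.05, 10 members were higher and 1 lower, where 13.5% and 11.5% of all tested genes were. The LPS+Tβ4 libraries lay wholly above the LPS libraries for 15 members (19.2%, against 14.4% of all tested genes) and wholly below for 3 (3.85%, against 11.9%). DESeq2 called 5 higher and none lower, and limma on FPKM 2 higher and none lower. The shares of all tested genes that these tools called are not given here. The 2 that passed in edgeR were Mrps36 and Mrpl49, which had fallen in LPS.

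Mrps36 held 7.13, 10.8 and 8.64 CPM in LPS and 15.6, 19.3 and 14.8 CPM in LPS+Tβ4 (0.90 ± 0.20, edgeR adjusted p = 0.0403). Mrpl49 held 22.3, 21 and 23.5 CPM in LPS and 33.1, 35.5 and 28.5 CPM in LPS+Tβ4 (0.54 ± 0.13, edgeR adjusted p = 0.0425). In both genes the 3 treated libraries lay above all LPS libraries and below all saline libraries. Each call was lost in 12 of 21 alternatives, with adjusted p up to 0.17 for Mrps36 and 0.18 for Mrpl49. The number of members called was 0 without any 1 of saline libraries 2 and 3, LPS libraries 2 and 3 and LPS+Tβ4 libraries 1 and 2. It was 1 without saline library 1 or LPS+Tβ4 library 3, and 6 without LPS library 1. The shares of all tested genes called in these fits are not given here, so these counts alone say nothing particular to the members. In LPS+Tβ4 library 3, with a urothelial sum of 94.2 CPM against 1.10 and 1.07 CPM in the others, 73 of 78 members were at their lowest level of the group (93.6%, where 42.8% of all tested genes were). With the urothelial covariate no member passed.

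The members next in order of p did not pass. Mrpl34 held 20.8, 23.2 and 14.9 CPM in LPS+Tβ4, all above its LPS libraries (1.49 ± 0.43, edgeR adjusted p = 0.0743). Mrps5 stood at 0.47 ± 0.14, Mrpl14, part of the interface of the subunits, at 0.69 ± 0.21, Mrpl12 at 0.58 ± 0.19 and Mrpl38 at 0.58 ± 0.19 (edgeR adjusted p from 0.0795 to 0.102). Mrps9, counterpart of bacterial S9, stood at -0.45 ± 0.16 (edgeR adjusted p = 0.12), with LPS+Tβ4 libraries of 32.1, 32.8 and 30.9 CPM below LPS libraries of 33.9, 49.2 and 47.3 CPM. Mrps18b stood at -0.25 ± 0.18 (edgeR adjusted p = 0.428).

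Among the other lists, 3 of 15 translation factors were higher in LPS+Tβ4 than in LPS and none lower, with a median of 0.44. These were Gfm2 (0.70, edgeR adjusted p = 0.016), Tsfm, the exchange factor of Tufm (0.88, edgeR adjusted p = 0.0229), and Lrpprc, which stabilises mitochondrial messages (0.84, edgeR adjusted p = 0.045). Tsfm held 23.3, 20.3 and 23.9 CPM in saline, 13.8, 14.1 and 10.4 CPM with LPS alone, and 24.1, 24.6 and 21.7 CPM in LPS+Tβ4. Its treated libraries thus lay in the range of saline or just above it. Fastkd2, Nars2, Rars2, Top1mt and Mgme1 also passed, all higher (0.80, 1.29, 0.62, 0.75 and 0.75). No cytosolic ribosomal protein gene passed in edgeR (at an unadjusted p under 0.05, 0 of 78), and 1 of 73 nuclear respiratory chain genes rose. The 7 markers of neurons and glia, none at 0, summed to 397.1 to 491.1 CPM in LPS+Tβ4, 25.3 to 166.5 CPM in LPS and 45.3 to 45.5 CPM in saline, and 6 of them rose. The 5 erythroid markers summed to 535.9 to 706.6 CPM in LPS and 181.6 to 262.6 CPM in LPS+Tβ4, and all 5 fell. Their part in these results was not tested.

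The comparison of LPS+Tβ4 with saline shares its saline libraries with the first comparison and its treated libraries with the second. Of 78 members 12 fell and 2 rose, where 11.8% of all tested genes fell and 12.3% rose in edgeR, with a median of -0.16 against -0.003 over all tested genes. On log2(FPKM + 1) with limma the split was 7 lower and 6 higher, and the median was 0.045 where that of all tested genes was 0.14. The share of all tested genes called in that fit is not given here. The ranges of the LPS+Tβ4 and saline libraries did not overlap for 32 lower members (41%, against 26.2% of all tested genes) and 6 higher ones (7.69%, against 24.7%). Mrps36 stood at -1.46 ± 0.21 in this comparison (edgeR adjusted p = 0.00203) and at -2.36 ± 0.21 in the first. For Mrpl42 the values were -1.04 ± 0.20 and -1.56 ± 0.20, for Mrpl12 -0.91 ± 0.19 and -1.49 ± 0.19, and for Mrpl49 -0.64 ± 0.13 and -1.18 ± 0.13. Mrpl39 was at -0.62 ± 0.13 and -0.68 ± 0.13 and Mrps21 at -1.28 ± 0.30 and -1.43 ± 0.30. Mrps18b, the one of these that was higher, stood at 1.15 ± 0.18 (edgeR adjusted p = 0.0031) and 1.40 ± 0.18. Mrpl44, a protein with a fold of the RNase III type, passed in this comparison. Its change in LPS against saline was -0.27 ± 0.16 (edgeR adjusted p = 0.186), and LPS+Tβ4 stood at -0.28 against LPS (edgeR adjusted p = 0.296). It held 39.5, 33.2 and 36.4 CPM in saline, 26.3, 27.6 and 36.4 CPM with LPS alone, and 25.7, 26.0 and 22.6 CPM in LPS+Tβ4 (-0.56 ± 0.16, edgeR adjusted p = 0.0327). The call was lost in 11 of 21 alternatives, 7 of them leaving out a library, with adjusted p up to 0.14. LPS library 3 of Mrpl44 lay among the saline libraries, and the LPS+Tβ4 libraries lay below them all.

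The second member that rose against saline was Mrpl33, which held 35.5, 32.5 and 33.2 CPM in saline, 39.3, 68.0 and 36.6 CPM with LPS alone, and 64.9, 54.1 and 50.3 CPM in LPS+Tβ4. All treated libraries lay above all saline libraries (0.74 ± 0.23, edgeR adjusted p = 0.0494), and the call was lost in 10 of 21 alternatives. Mrps36, Mrpl42, Mrpl12, Mrpl49 and Mrps18b kept theirs in all of them. The number of calls was 7 without saline library 1, saline library 3, LPS+Tβ4 library 1 or LPS+Tβ4 library 3, and 9 without saline library 2 or LPS+Tβ4 library 2. The shares of all tested genes called in these fits are not given here.

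**Figure D5:**
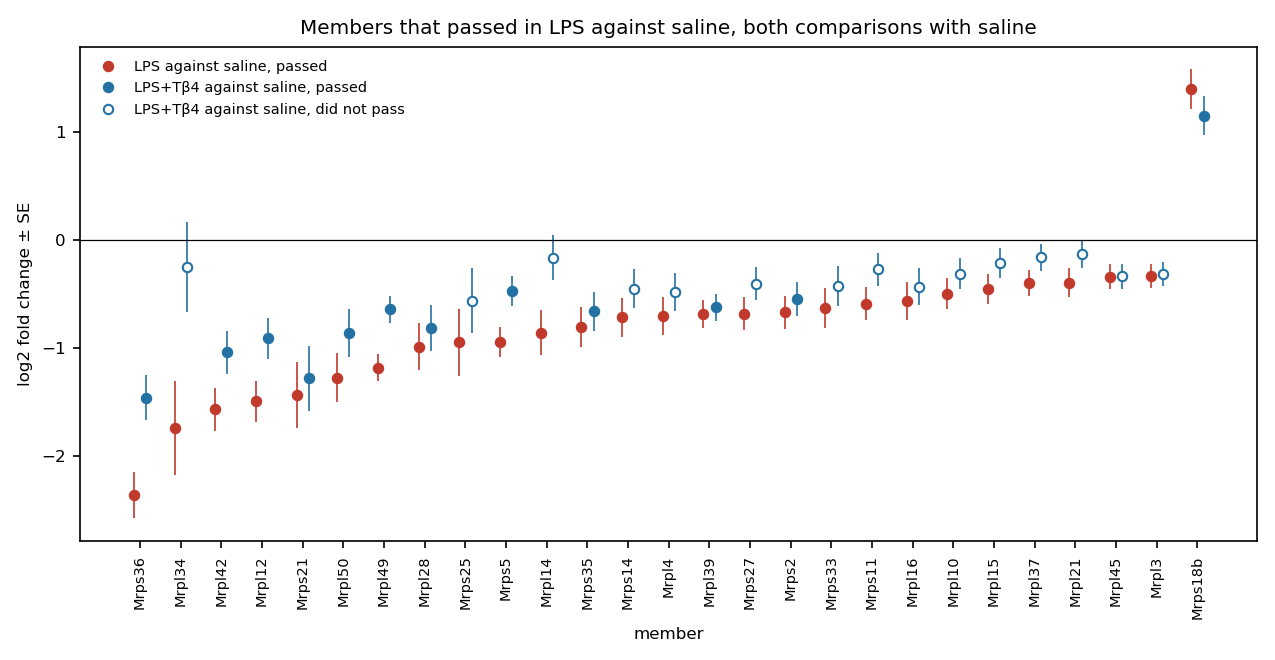
Log2 fold change (vertical axis, ± SE) of the 27 members that passed in LPS against saline, with LPS+Tβ4 against saline beside it; filled points passed edgeR. The comparisons share the saline libraries, and Mrps36 is the lowest in both, at -2.36 and -1.46.

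By the correlation of log2 CPM with the summed level of the members over the 9 libraries, the genes most like them were Snapc5 (Pearson r = 0.982), Prrg2 (r = 0.976) and Tmem147 (r = 0.973). Snapc5, a subunit of the complex that starts small nuclear RNA genes, held 36.7, 26.4 and 26.6 CPM in saline, 17.3, 21.9 and 20.9 CPM with LPS alone, and 25.2, 24.0 and 19.5 CPM in LPS+Tβ4. As in the members' sum, saline library 1 was the highest and LPS+Tβ4 library 3 the lowest of its group. These coefficients come from libraries that share depth and scaling, and no test was made.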

How the data were processed

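Gene expression was measured by paired-end sequencing of strand-marking (dUTP) poly(A) libraries of 9 mouse kidneys. The deposited table gives read counts per gene, which the authors did not normalize, and FPKM values per gene, which the authors scaled by depth and gene length. The submitters' processing notes name cutadapt 1.9, HISAT2 2.2.1, StringTie 2.1.6, DESeq2, edgeR and the build GRCm38. For the counting program, annotation release and strand setting: not given in the sources used here.

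Counts of the 15015 genes with a mean of at least 0.5 FPKM were scaled by TMM and fitted in edgeR 4.0.16 (quasi-likelihood, 9 libraries, 1 coefficient per group) under R 4.3.3. The 3 comparisons were adjusted separately by Benjamini-Hochberg, with a threshold of 0.05. The SE is the log2 fold change divided by the square root of F. DESeq2 1.42.0, limma 3.58.1 on log2(FPKM + 1), other scalings and filters, covariates and leaving out each library were alternatives. The fit was also run on simulated counts with 200 genes changed, far fewer than passed in LPS against saline. For that comparison it recovered 0% of 1.5-fold, 7.2% of 2-fold and 51.6% of 4-fold changes. The shares were 1.3%, 2.9% and 59.3% for LPS+Tβ4 against LPS, and 0%, 9.1% and 71.6% for LPS+Tβ4 against saline. False calls numbered 0 to 3 per comparison. Overlaps, neighbours and transcript lengths came from GENCODE M21, in which 69 of 78 members had the same start and end as in the table. Promoters came from RefSeq.

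The members, lists and alternatives were chosen with earlier results of these data known. Named members were those of smallest adjusted p in each comparison (12 that fell and up to 8 that rose in LPS, up to 10 in LPS+Tβ4 against LPS or else the 6 of smallest p, and 6 in LPS+Tβ4 against saline), the 6 highest and 4 lowest in FPKM, the Mrps18 paralogs and Mrps36, with up to 3 genes of each other list and the 3 genes most like the members' sum. Other members, the overlapping genes and the divergent neighbours were named after their values were seen. Replicate numbers were not used to pair the libraries in the main fit. The deviations of same-numbered libraries correlated from -0.629 to 0.259, and those of differently numbered libraries from -0.45 to 0.498. With 3 libraries a group, these values cannot settle whether same-numbered mice shared a batch.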

Additional observations from a re-analysis of the deposited data

How the results depend on the processing

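Every member that passed in edgeR kept its direction in all alternatives, but counts moved. The number passing in LPS against saline (27) was 17 with no expression filter and 16 to 28 when 1 library was left out, the lowest without saline library 1. For LPS+Tβ4 against LPS (2) it was 5 with DESeq2, 1 with filterByExpr, 0 with no filter, 0 with the 6 libraries compared alone, 0 with the urothelial covariate and 0 with the replicate block, and 0 to 6 when 1 library was left out. For LPS+Tβ4 against saline (14) it was 7 with no filter, 7 with the replicate block and 7 to 17 when 1 library was left out. The replicate block gave 20 in LPS against saline, where 2738 of all tested genes fell and 2546 rose. The members' median change in LPS+Tβ4 against saline turned from -0.162 to 0.045 and 0.048 with limma on log2(FPKM + 1) and log2(FPKM + 0.1), where the median of all genes was 0.141 and 0.186. GC content and length offsets, chosen after seeing the data, gave 30, 3 and 15 members. For the comparisons with LPS+Tβ4, the shares of all tested genes called in the alternatives are not given here. Of the members called, 14 of 27, 0 of 2 and 5 of 14 held in every alternative. The cause of these shifts was not tested. With 3 mice a group, members that did not pass are not shown to be unchanged.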
